A study of Homo sapiens with 6 samples.

Results

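The 9 genes POU5F1, NANOG, PRDM14, SALL4, ZFP42, LIN28A, LIN28B, DPPA4 and DNMT3B are characteristic of pluripotent stem cells, and their chromatin was examined here in neurons made from such cells. A window was set at each gene, namely its GRCh38 interval extended by 20 kb on either side, and every listed CTCF or H3K27ac peak sharing at least 1 bp with it was taken. This gave 15 of the 43677 CTCF peaks and 33 of the 78694 H3K27ac peaks, at 9 of 19974 protein-coding genes. The cells were untreated neurons of KOLF2.1J, a widely shared human iPSC (induced pluripotent stem cell) line, obtained by differentiating its neural progenitors with a BrainPhys-based protocol. ChIP-seq, which sequences the DNA bound by a protein or carrying a histone mark, was done with 2 libraries for CTCF, 2 for H3K27ac and 2 inputs. Each antibody has 1 peak list for both of its libraries, so the spread between replicates and the depth are unknown, and all counts and values below are descriptions with no test. All libraries come from a single cell line, and stem cells themselves were not among the samples.

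CTCF is a DNA-binding protein that stops loop extrusion by cohesin and so marks loop anchors and domain borders, and many of its sites are bound in most cell types. H3K27ac, acetylation of lysine 27 of histone H3, is found at active promoters and enhancers. In pluripotent cells OCT4 (the product of POU5F1) and NANOG, together with SOX2, hold the stem cell state, and their genes are silenced as cells differentiate. LIN28A and LIN28B, by contrast, are RNA-binding proteins that block maturation of let-7 microRNAs and are also used in early neural progenitors, and DNMT3B is a de novo DNA methyltransferase that is likewise active beyond the pluripotent stage.

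The 9 genes fell into 3 classes. POU5F1, NANOG, ZFP42 and PRDM14, 4 genes in all, had neither a CTCF nor an H3K27ac peak inside the gene, a state found at 22.7% of protein-coding genes. LIN28A, LIN28B, SALL4 and DNMT3B, another 4, had both, as did 47.2% of protein-coding genes. DPPA4 alone had H3K27ac without CTCF, and no gene had CTCF without H3K27ac. H3K27ac thus overlapped 5 of 9 genes, against a background of 69% of protein-coding genes, and CTCF overlapped 4 of 9, against 55.6%. With the 20 kb extension H3K27ac was listed at 7 of 9 (background 81.3%) and CTCF at 6 of 9 (background 83%). The median length of the 9 genes was 18.9 kb, against 24.2 kb over all protein-coding genes. Longer genes have more room for a peak, and the part of length in these shares was not tested.

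**Figure D1:**
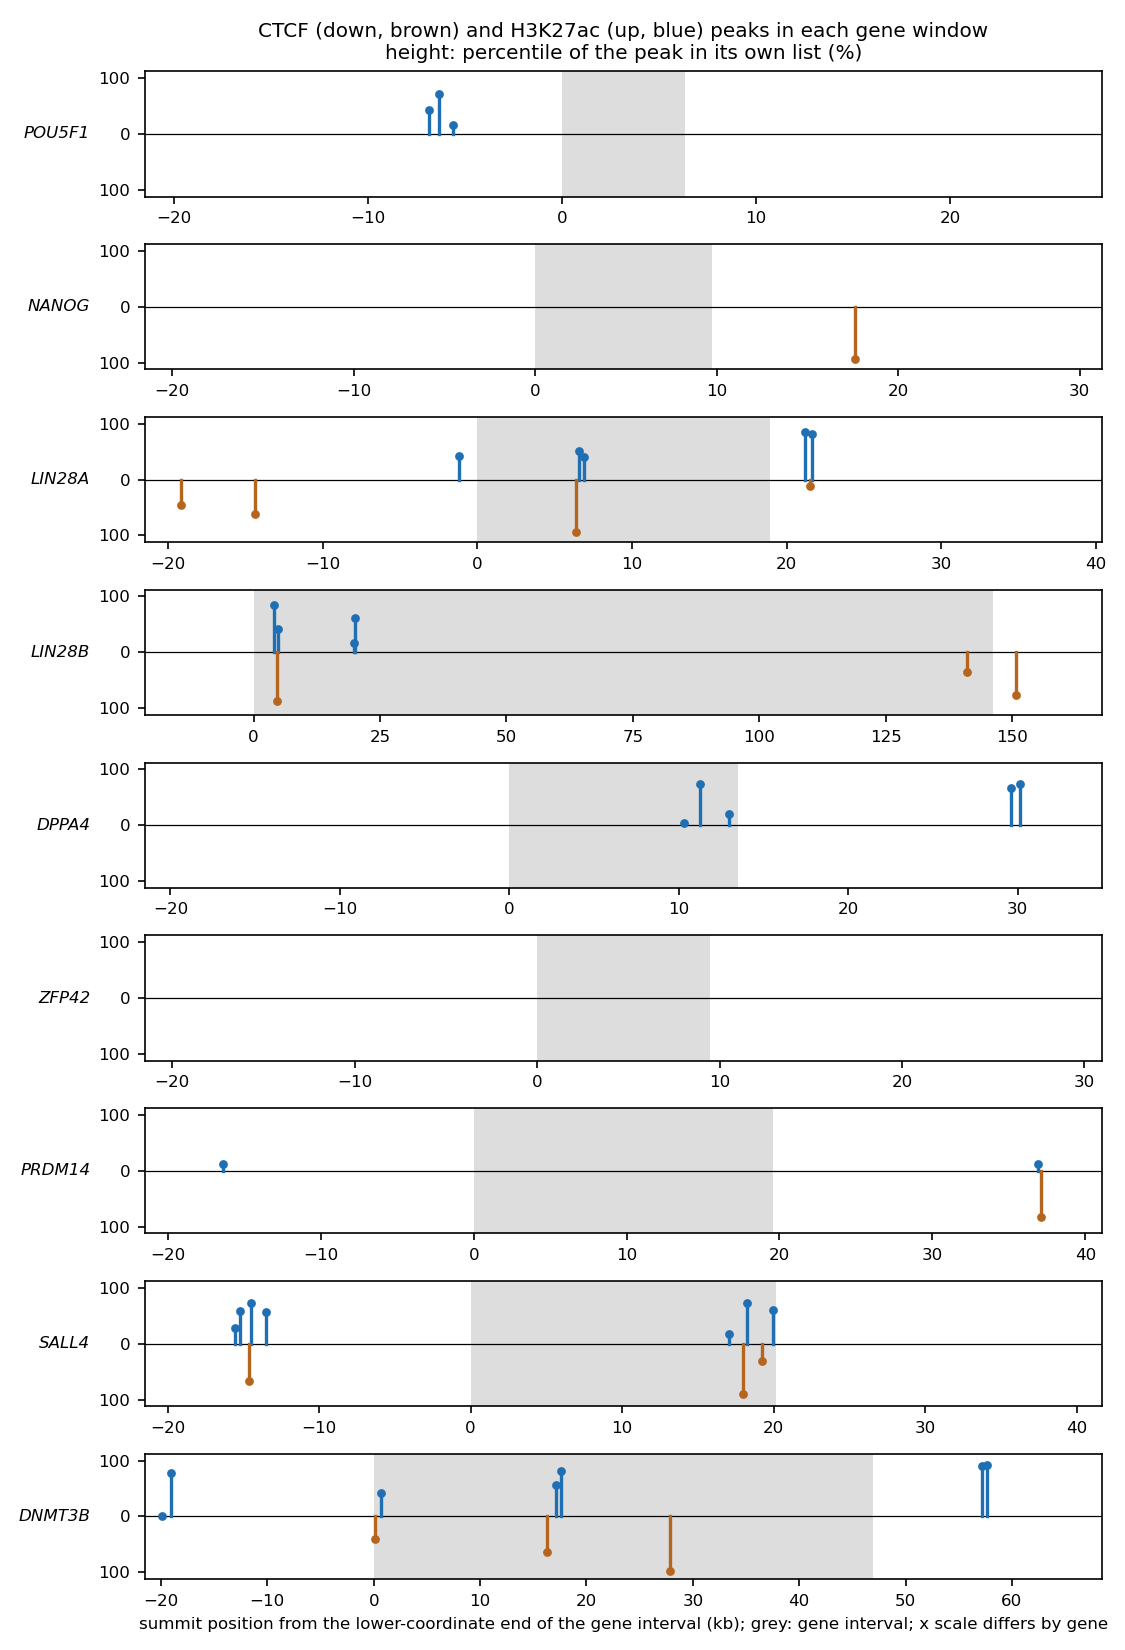
CTCF and H3K27ac peaks in the window of each gene. The horizontal axis is the summit position in kb from the lower-coordinate end of the gene interval (grey), the height is the percentile of the peak in its own list, with H3K27ac drawn upward in blue and CTCF downward in brown. ZFP42 has no peak of either kind, and NANOG has a single CTCF peak outside the gene.

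To show the DNA at the gene starts that did and did not carry H3K27ac, the 250 bases before the start are printed for 5 genes, from RefSeq promoters of GRCh38.p14, 5′ to 3′ on the strand of the gene. Of the 9 genes, 5 matched the promoter table, with 6 starts. The first pair had no H3K27ac within 1 kb of the start, and the other 3 starts lay inside an H3K27ac peak. For LIN28B the lower-coordinate of its 2 listed starts is shown. The starts of NANOG and ZFP42 are at the end of the gene interval, and those of DPPA4, LIN28B and DNMT3B lie inside it. Capitals mark an octamer-type motif, ATGCAAA or its complement TTTGCAT, and a GC box, GGGCGG or its complement CCGCCC.
NANOG (chr12:7789152-7789401, plus strand): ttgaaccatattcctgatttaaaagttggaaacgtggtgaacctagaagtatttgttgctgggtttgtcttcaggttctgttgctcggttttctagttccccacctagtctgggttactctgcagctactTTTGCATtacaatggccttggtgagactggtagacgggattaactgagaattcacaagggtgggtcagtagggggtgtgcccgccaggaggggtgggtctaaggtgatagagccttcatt
ZFP42 (chr4:187995521-187995770, plus strand): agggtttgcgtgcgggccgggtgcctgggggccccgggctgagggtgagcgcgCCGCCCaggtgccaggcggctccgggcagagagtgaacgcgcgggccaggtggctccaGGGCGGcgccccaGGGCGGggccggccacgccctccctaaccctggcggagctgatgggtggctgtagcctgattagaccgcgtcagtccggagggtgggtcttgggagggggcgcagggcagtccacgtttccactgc
DPPA4 (chr3:109337547-109337796, minus strand): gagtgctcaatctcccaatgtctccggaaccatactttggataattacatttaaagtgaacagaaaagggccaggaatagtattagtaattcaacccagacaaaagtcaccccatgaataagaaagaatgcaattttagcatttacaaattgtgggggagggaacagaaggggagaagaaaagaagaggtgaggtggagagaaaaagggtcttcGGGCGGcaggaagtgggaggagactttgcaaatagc
LIN28B (chr6:104940715-104940964, plus strand): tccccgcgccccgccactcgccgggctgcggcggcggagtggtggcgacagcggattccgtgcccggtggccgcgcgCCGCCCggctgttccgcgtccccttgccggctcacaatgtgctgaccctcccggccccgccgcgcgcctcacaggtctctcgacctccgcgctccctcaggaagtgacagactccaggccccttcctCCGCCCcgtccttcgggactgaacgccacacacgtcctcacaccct
DNMT3B (chr20:32779602-32779851, plus strand): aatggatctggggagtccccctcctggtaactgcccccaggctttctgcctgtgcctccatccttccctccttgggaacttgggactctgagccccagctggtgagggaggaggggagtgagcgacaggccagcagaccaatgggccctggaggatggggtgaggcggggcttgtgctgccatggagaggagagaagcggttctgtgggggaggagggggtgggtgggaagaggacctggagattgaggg

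The octamer-type motif was present in the NANOG promoter and in no other of the 6, and in 3.5% of the 22132 promoters of protein-coding genes when the same 250 bases were searched on both strands. The GC box occurred 3 times before ZFP42, 2 times before the lower LIN28B start and 1 time before DPPA4, and in 53.7% of all promoters at least once. A match of letters is not a bound site. The CpG dinucleotide, which is dense in the promoters of widely used genes, occurred 33 times before the lower LIN28B start and 23 times before ZFP42, which exceeded 89.7% and 67.0% of all promoters. It occurred 6 times before the higher LIN28B start, 4 times before NANOG, and 3 times before each of DPPA4 and DNMT3B, where only 13.8% of promoters had fewer. Across the table, a start lay inside an H3K27ac peak in 59.1% of promoters at or above the median of 16 CpGs and in 26.5% of those below it. ZFP42 was therefore a CpG-rich start without H3K27ac, and the listed starts of DPPA4 and DNMT3B, inside their gene intervals, were CpG-poor starts with it. For DNMT3B no start was listed at the lower-coordinate end, where its interval begins on its strand, so the CpG count there is not known.

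Of the 6 listed starts, 4 lay inside an H3K27ac peak, against 43.5% of all listed starts of protein-coding genes. The 4 belonged to LIN28B (both starts), DPPA4 and DNMT3B. The other two, of NANOG and ZFP42, had no H3K27ac peak within 1 kb, a distance within which 63.8% of all starts had one. A CTCF peak lay within 1 kb of 1 of the 6 starts, the lower LIN28B start, against 32.3% of all starts.

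**Figure D2:**
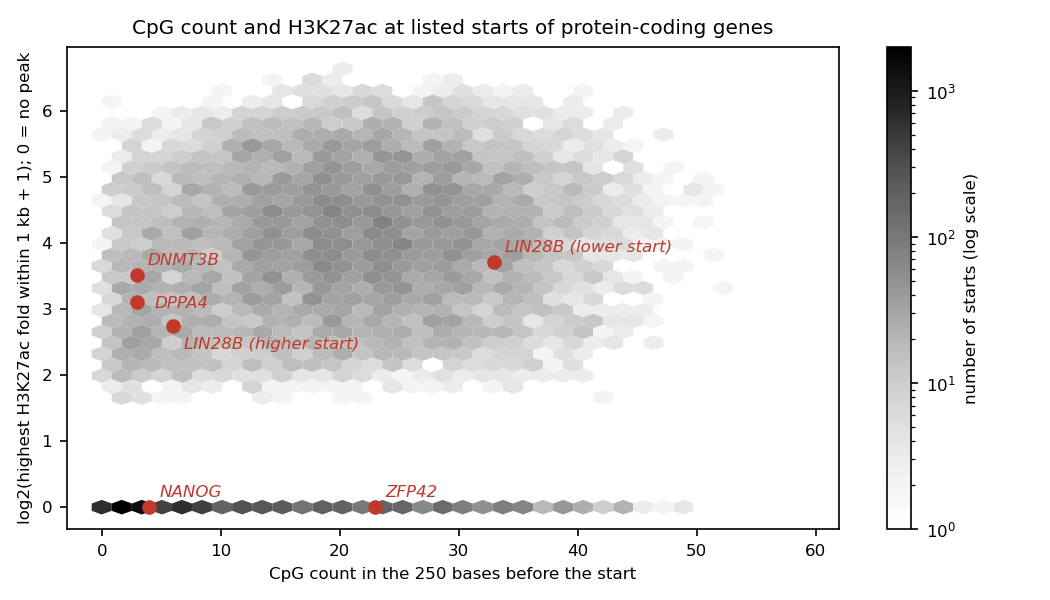
CpG count in the 250 bases before each listed start of a protein-coding gene (horizontal) and the highest H3K27ac fold enrichment within 1 kb, as log2 of the fold plus 1 (vertical, 0 for no peak). Grey cells give the number of starts on a log scale and red points the 6 starts of the pluripotency genes: ZFP42, with 23 CpGs, sits at 0, and DPPA4 and DNMT3B, with 3 CpGs each, sit above it. The listed starts of DPPA4, LIN28B and DNMT3B lie inside the gene interval.

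POU5F1 encodes OCT4 and lies on chromosome 6 from 31164337 to 31170682. No CTCF peak was listed in its window, and the nearest was 21.8 kb beyond its higher-coordinate end with a signal value of 179. No H3K27ac peak overlapped the gene. The 3 in its window lay 5.58 to 6.69 kb below it, in TCF19 and CCHCR1, its neighbours in the major histocompatibility region. The strongest of these covered the start of CCHCR1, a coiled-coil protein gene, with a listed value of 7.19, read here as a fold enrichment. That fold was at percentile 70.8 of its list, a percentile being the share of peaks in the list with a lower value. Within 20 kb of POU5F1, H3K27ac was therefore listed only in other genes. Beyond the window, 26.8 kb above the gene, a peak in no annotated gene had a fold enrichment of 6.41.

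NANOG encodes a homeodomain factor and lies on chromosome 12 from 7789402 to 7799146. Its window held no H3K27ac peak, and the nearest was 30.7 kb away on the lower-coordinate side with a fold enrichment of 3.91. A single CTCF peak from 7806812 to 7807292, between NANOG and the glucose transporter gene SLC2A14, reached a signal value of 279 (percentile 93.2 of the CTCF list). It lay 7.67 kb beyond the gene and overlapped no H3K27ac peak. NANOG was thus without H3K27ac while a strong CTCF site stood next to it.

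ZFP42 encodes REX1, a zinc finger protein widely used as a marker of pluripotent cells, and lies on chromosome 4 from 187995771 to 188005246. It was the only gene of the 9 with no peak of either list in its window, which held for 9.24% of protein-coding genes. The nearest H3K27ac peak was 327 kb away (fold enrichment 3.96) and the nearest CTCF peak was 329 kb away (signal value 31.5). Those distances exceeded those of 98.4% and 99.1% of protein-coding genes. The neighbourhood of ZFP42, and not its promoter alone, was empty in both lists.

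PRDM14 encodes a zinc finger regulator of pluripotency and germ cell fate and lies on chromosome 8 from 70051651 to 70071252. The gene had no peak, and its window had 2 H3K27ac peaks, each with a fold enrichment of 3.05 at percentile 12.3. They lay 16.3 kb below the gene and 17.2 kb above it. The latter overlapped a CTCF peak from 70088512 to 70088982, whose signal value of 218 stood at percentile 83.1. Just outside the window, 21.4 kb above the gene, a further H3K27ac peak had a fold enrichment of 9.48. All peaks near PRDM14 were thus at a distance from the gene.

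SALL4 encodes a zinc finger factor that recruits the NuRD repressor complex, and it lies on chromosome 20 from 51782331 to 51802521. The gene is transcribed from its higher-coordinate end, and its peaks clustered there. The broadest H3K27ac peak, from 51800143 to 51801768, was 1626 bp wide with a fold enrichment of 7.46 (percentile 72.2) and its summit 1.95 kb inside that end. A second, with its summit 0.227 kb inside that end, had a fold enrichment of 5.54, and a weaker one 3.11 kb inside it had 3.24. A CTCF peak from 51800081 to 51800582 reached a signal value of 256 (percentile 89.7) and lay partly inside the broad H3K27ac peak. Another CTCF peak of 800 bp, with a signal value of 52.5, ran from 51801138 to 51801937 and had its summit inside the broad peak. Only its edge overlapped the H3K27ac peak nearest the end, which began at 51801917. All peaks inside SALL4 thus lay near the end from which it is transcribed.

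The start of the neighbouring gene ATP9A, a phospholipid flippase, also fell in the SALL4 window. An H3K27ac peak covered it with a fold enrichment of 7.46, the same as the highest inside SALL4, and 3 others around it had 3.66, 5.31 and 5.52. A CTCF peak there had a signal value of 147. The SALL4 window held 7 H3K27ac peaks in all, more than 76.4% of protein-coding genes had in theirs, and 3 of these were in SALL4 itself.

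LIN28A lies on chromosome 1 from 26410817 to 26429728. The strongest CTCF peak of its window, from 26416973 to 26417452, was inside the gene and reached a signal value of 286 (percentile 93.96). An H3K27ac peak from 26417296 to 26417465 overlapped it with a fold enrichment of 4.83, and another followed from 26417600 to 26417834 with 4.27. Outside the gene, 0.942 kb below its lower end, an H3K27ac peak had a fold enrichment of 4.32. All 3 folds were near the list median of 4.74. LIN28A thus held a CTCF site from the upper end of its list, with H3K27ac of middling fold beside it.

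The higher folds in the LIN28A window lay at the adjacent starts of the lncRNA LOC124903883 and of DHDDS, which encodes a subunit of the enzyme that makes dolichol precursors. There, H3K27ac peaks had fold enrichments of 12.1 and 10.4, at percentiles 84.7 and 81.5, and a weak CTCF peak of 800 bp had a signal value of 29.4. The remaining 2 CTCF peaks, 14.2 and 19.0 kb below LIN28A, had signal values of 129 and 79.0 and no H3K27ac.

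LIN28B, the paralog of LIN28A, lies on chromosome 6 from 104937026 to 105083332 and carried the highest H3K27ac fold found inside any of the 9 genes. The peak, from 104940754 to 104941456, reached a fold of 12.1 (percentile 84.6), and its summit was 10 bases after the lower listed start. A second H3K27ac peak 791 bases after that start had 4.33. A CTCF peak from 104941344 to 104941830 overlapped both and reached a signal value of 238 (percentile 86.7), its summit lying 635 bases after the start. At the higher listed start, H3K27ac folds were 5.65 over the start and 3.24 just before it, with no CTCF. The CpG-rich lower start, printed above, thus had more H3K27ac than the CpG-poor higher start, and it was the one with CTCF.

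The rest of LIN28B, which is the longest of the 9 genes, had no further H3K27ac. A CTCF peak of 800 bp with a signal value of 59.2 lay 5.28 kb inside its higher end, and one with 184 lay 4.24 kb beyond that end. LIN28A and LIN28B both carried CTCF with H3K27ac, and the highest fold inside the gene was 4.83 in LIN28A and 12.1 in LIN28B.

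DPPA4 encodes a chromatin-associated protein that works with DPPA2 at promoters carrying both active and repressive marks, and it lies on chromosome 3 from 109326144 to 109339636. An H3K27ac peak from 109337357 to 109338028 covered its listed start with a fold enrichment of 7.63, at percentile 73.0 of the list. On either side were weaker peaks, 1081 bases after the start with 2.52 and 1557 bases before it with 3.42. A further pair lay 15.7 and 16.4 kb beyond the higher-coordinate end in no annotated gene, with folds of 6.50 and 7.77. No CTCF peak was listed within 50.04 kb, a gap larger than that of 92.2% of protein-coding genes. DPPA2, the neighbour and partner of DPPA4, had no peak of either list inside it.

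DNMT3B lies on chromosome 20 from 32762385 to 32809356. Its strongest H3K27ac peak, from 32779843 to 32781523, was the widest in the 9 windows at 1681 bp and covered the listed start, with a fold enrichment of 10.4 at percentile 81.4. A smaller peak 301 bases before that start had 5.15. At the lower-coordinate end of the gene, 0.692 kb inside it, a peak had 4.32. H3K27ac was thus higher at the listed internal start than at that lower-coordinate end.

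The DNMT3B gene also held 3 CTCF peaks, more than 83.5% of protein-coding genes. The strongest, from 32789985 to 32790485, reached a signal value of 330 (percentile 98.0) and was the highest CTCF value in the 9 windows. The others had 135, at a position 1213 bases before the listed start, and 70.1, at the lower-coordinate end. None of the 3 overlapped an H3K27ac peak. The highest H3K27ac folds in the window were not in DNMT3B: 18.4 and 16.1 at MAPRE1, which encodes the microtubule end-binding protein EB1. A peak covering the start of COMMD7 had 9.04.

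Taking the strongest H3K27ac peak of each window, it overlapped the gene itself in LIN28B and SALL4 (tied with ATP9A), 2 of the 7 windows with H3K27ac. For CTCF the strongest peak overlapped the gene in 4 of the 6 windows with CTCF. How often this holds over all protein-coding genes was not computed, so neither count can be called particular to these genes. Of the 33 H3K27ac peaks, 15 overlapped the pluripotency genes, 12 overlapped other genes and 6 overlapped none. Inside the pluripotency genes the folds ran from 2.52 to 12.1 with a median of 4.83, next to 4.74 over the whole list, and outside them from 2.27 to 18.4 with a median of 6.01.

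Each gene with a peak inside it was ranked by its highest value among the protein-coding genes that also have a peak inside, which are 69% of genes for H3K27ac and 55.6% for CTCF. By H3K27ac fold, LIN28B exceeded 40.9% of those genes, DNMT3B 34.7%, DPPA4 23.3%, SALL4 22.5% and LIN28A 9.38%. By CTCF signal value, DNMT3B exceeded 95.5% of those genes, LIN28A 87.5%, SALL4 79.7% and LIN28B 75.1%. The 5 genes with H3K27ac thus all lay below the middle of acetylated genes, and the 4 with CTCF lay in the upper part of genes with CTCF. Over all 9 genes, those without a peak counted as 0, the median of the highest fold inside the gene was 4.83, against 8.64 over all protein-coding genes, and for CTCF it was a signal value of 0 against 37.2. With the 20 kb extension the medians were 7.46 against 14.4 for H3K27ac and 238 against 167 for CTCF. For CTCF the median of the 9 genes was therefore below that of all genes inside the gene and above it with the extension.

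**Figure D3:**
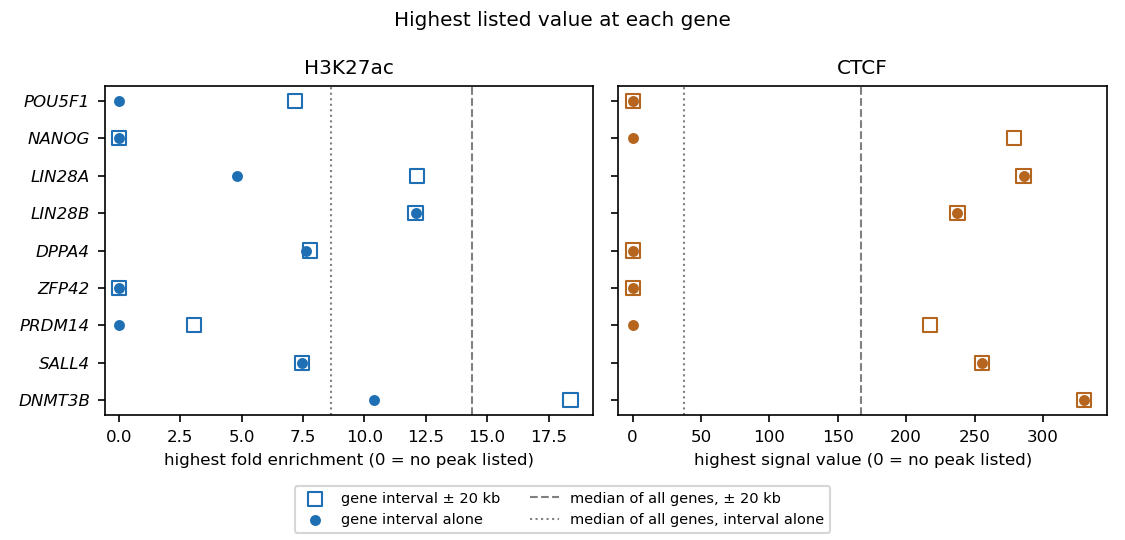
Highest H3K27ac fold enrichment (left) and CTCF signal value (right) at each gene, inside the gene interval (filled points) and with the 20 kb extension (open squares); grey lines are medians over all protein-coding genes. LIN28B reaches a fold of 12.1 inside the gene, and the CTCF values of the 4 genes that have any lie between 238 and 330.

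CTCF and H3K27ac peaks met at 7 of the 15 CTCF peaks, or 46.7%, next to 28.1% of the whole CTCF list. A 95% Wilson interval of 24.8 to 69.9% covers counting error only and serves here only as a limit for the alternatives below. It treats the peaks as independent, which they are not. Several share a window, and both CTCF peaks inside SALL4 met the same broad H3K27ac peak. Inside the genes they met at 4 of 8 CTCF peaks: the LIN28A site, the LIN28B start and both SALL4 sites. Of the 15 CTCF peaks, 10 were at or above the median signal value of the list, and 3 had the recurrent width of 800 bp that 33.4% of the whole list has. The share depended on what counts as meeting: 3 of 15 CTCF summits lay inside an H3K27ac peak, or 20%, next to 17.9% of all CTCF summits. All 3 were in the SALL4 window, and the summits at LIN28A and LIN28B lay outside the H3K27ac peaks. The 20 kb limit passed between a LIN28A CTCF peak 19.0 kb from the gene (signal value 79.0) and a POU5F1 one at 21.8 kb (179). For H3K27ac it passed between a DNMT3B peak at 19.7 kb (fold 2.27, the only one in the windows with a q-value above 0.05) and a SALL4 one at 21.3 kb (3.51).

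The other genes of the pluripotency network, 33 in a list written for this comparison, were read in the same way: 15 of 32 found in the gene table had H3K27ac inside the gene, or 46.9%, below the 69% of all protein-coding genes. TDGF1 was not matched. Among transcription factors 8 of 14 had H3K27ac, and SOX2, a factor that neural progenitors also use, had a highest fold of 29.3. FOXD3 and ZSCAN10 had none. Among signalling genes of the Nodal and FGF pathways 1 of 5 had it, NODAL with a fold of 6.86, while LEFTY1 and LEFTY2, which encode Nodal inhibitors, had none. Among the remaining stem cell genes 6 of 13 had it, led by PHC1, a Polycomb subunit (24.1), and VRTN (20.4), whereas DPPA2 and DPPA3 had none. The median of the highest fold inside the gene was 0 over these 32 genes and 8.64 over all protein-coding genes. The median gene length was 15.8 kb over the 32 and 24.2 kb over all protein-coding genes, and the part of length was not tested.

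The pathways in which LIN28 and DNMT3B act were listed as well. All 12 genes of the LIN28 and let-7 pathway had H3K27ac, with a median highest fold of 25.3. Over all protein-coding genes the share was 69% and the median 8.64. The highest were TUT4, a uridylyltransferase that LIN28A recruits to let-7 precursors (49.9), and TRIM71, a let-7 target (36.7). DROSHA (6.06) and DGCR8 (7.68) were below the median of all protein-coding genes. Among DNA methylation genes 8 of 9 had H3K27ac, led by the demethylating dioxygenases TET2 (34.1) and TET3 (32.8). UHRF1 (8.07) was below the median of all protein-coding genes, and ZBTB24 had none. The genes of these lists are long, with medians of 105 and 68.1 kb. The maintenance methyltransferase DNMT1 had 28.0 and DNMT3A had 30.4, next to 10.4 in DNMT3B.

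Paralogs of the pluripotency genes had H3K27ac in 12 of 15 cases, or 80%, against 69% of all protein-coding genes. Their median highest fold was 21.3, against 8.64 over all protein-coding genes. The highest were SALL1 (56.4) and POU3F3 (45.2), both used in neural development. DNMT3A and DPPA2 stand in this list and in another. YY2 and DPPA2 had none. SALL4 with 7.46 stood below SALL1, SALL2 (27.2) and SALL3 (18.1). Of the POU paralogs of POU5F1, which had no peak, POU3F2 had 39.6, POU2F1 36.4 and POU3F1 only 4.23. Of the PRDM paralogs of PRDM14, which had none, PRDM16 had 25.0, PRDM8 4.33 and PRDM13 4.18. Of the relatives of ZFP42, which had none, YY1 had 21.3. The order within these families is a description of a single list and was not tested.

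**Figure D4:**
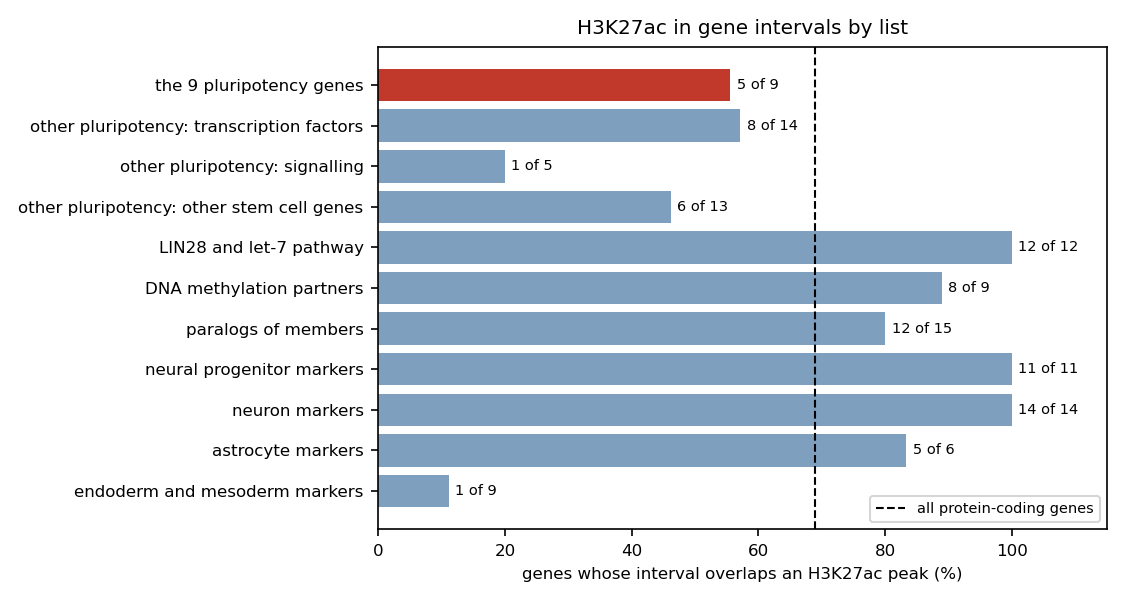
Share of genes in each list whose interval overlaps an H3K27ac peak, with the numbers beside each bar; the dashed line is the 69% of all protein-coding genes. The 9 pluripotency genes (red, 5 of 9) and the 3 lists of other pluripotency genes lie below the line, and the LIN28 and DNA methylation lists lie above it.

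Markers of the cells that the cultures could hold were read in the same way. All 14 neuron markers had H3K27ac, led by GAP43 (47.0) and MAP2 (35.9), against 69% of all protein-coding genes. RBFOX3 (5.96) and SYN1 (5.54) were below the median of 8.64 over all protein-coding genes. All 11 neural progenitor markers also had H3K27ac, led by MSI1 (50.3) and SOX1 (43.9). The lowest of them, HES1 (9.10) and PAX6 (9.81), were close to that median of 8.64. The median highest fold was 16.5 over neuron markers and 28.1 over progenitor markers, with median gene lengths of 126 and 8.6 kb. Among astrocyte markers 5 of 6 had it, led by GJA1 (30.4), with low folds at ALDH1L1 (4.39) and GFAP (2.75) and none at AQP4. Among endoderm and mesoderm markers 1 of 9 had it, MESP1 (8.68), with none at SOX17 and FOXA2. Since each library mixes many cells, few cells with much acetylation and many cells with little cannot be told apart. The part of progenitor cells in the peaks at LIN28B, SALL4 and DNMT3B was not tested. The defining stem cell genes POU5F1 and NANOG had no H3K27ac peak inside them.

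An unlisted peak does not show that signal was absent, since the depth is unknown. Some of the genes have annotated copies elsewhere, of which the table names 11 for NANOG, 7 each for POU5F1 and SALL4, and 3 each for LIN28A and DPPA4. How reads that fit several copies were handled is not given in the sources used here, so the lack of peaks over exons of these genes is uncertain. None of the copies had a CTCF or an H3K27ac peak.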

How the data were processed

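ChIP-seq peaks from KOLF2.1J neurons were taken from 2 deposited lists, 1 per antibody, each made by the authors for both replicates together. Per the submitters' processing notes the build is hg38 and cutadapt 1.16 was used. The aligner and peak caller are not given in the sources used here. The deposited CTCF list gives a signal value on an unstated scale, and the deposited H3K27ac list a fold enrichment, read as a ratio from its values and layout. Both deposited lists also hold −log10 q values and a score, which was not used. Many CTCF peaks share the highest −log10 q, 4.78, so it does not rank them. No value was compared between the lists. There are 0 columns of per-sample values, and inputs were not analysed here.

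Gene intervals came from the RefSeq table of GRCh38.p14 on 23 chromosomes, without Y, and 114 of 115 listed genes were found. Positions are 1-based, and overlap means at least 1 bp. Overlap counting in Python 3.11.15 with pandas 2.3.3 was tested on simulated intervals. All 9 genes were named, with the genes at the strongest peak of each window, and from each other list the 2 highest genes and up to 2 without a peak (1 gene is not reported here); a few others (such as DNMT1 and the paralogs beyond the rule) were added as relatives of the 9 after their values were seen. The markers RBFOX3, SYN1, HES1, PAX6, ALDH1L1 and GFAP were also added after their values were seen, as low members of their lists. The same holds for DROSHA, DGCR8 and UHRF1. The 9 genes and the lists were chosen with earlier results of these data known. The analysis of promoter sequence was added after seeing the files. Alternatives changed the extension, the list, the overlap rule and the CTCF peaks used.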

Additional observations from a re-analysis of the deposited data

How the results depend on the processing

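No paired analysis was possible because each list covers both replicates together, and leaving out each replicate was not run for the same reason. Of 42 alternatives over 6 results, 34 left the value within 1.5 times for counts, within the interval for the share, or equal for the median, and 8 moved it. The numbers of genes with a peak stayed within that limit, at 5 to 8 of 9 for H3K27ac and 4 to 7 of 9 for CTCF. Over the same settings the shares of all protein-coding genes were 69.0 to 88.2% for H3K27ac and 55.6 to 92.2% for CTCF. The CTCF count of 4, with no extension and with 5 kb, was exactly at the limit of 1.5 times. Without the extension the counts fell from 15 to 8 CTCF and from 33 to 15 H3K27ac peaks, and the median highest fold from 7.46 to 4.83. With 50 kb they were 25 CTCF peaks and a median of 7.77, and with 5 kb there were 18 H3K27ac peaks. These follow from the size of the window. The strongest 50% of each list left 19 H3K27ac peaks. Counting summits only took the share of CTCF peaks meeting H3K27ac from 46.7% to 20%.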

Other observations

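MicroRNA genes give another view of the stem cell programme and were added after the protein-coding genes had been seen. The mature sequences from RefSeq are shown for a stem cell microRNA, for the let-7 family that LIN28 proteins block, and for miR-9, a microRNA of neural progenitors and neurons, with the seed (bases 2 to 8) in capitals.
miR-302a-3p: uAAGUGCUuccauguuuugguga
miR-372-3p: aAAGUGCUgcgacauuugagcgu
let-7i-5p: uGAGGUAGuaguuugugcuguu
miR-9-5p: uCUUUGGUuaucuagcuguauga

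The first pair share the seed AAGUGCU and come from the stem cell clusters on chromosomes 4 and 19. None of the 5 hairpins of the miR-302 cluster, MIR367 included, and none of the 4 at the miR-371 cluster, had an H3K27ac peak within 5 kb, against a background of 32.6% of the 1558 hairpins in the RefSeq table. The nearest was 9.63 kb from the miR-302 cluster, with a fold enrichment of 45.0, and 61.7 kb from the miR-371 cluster, with 3.53. A CTCF peak with a signal value of 340 lay 4.10 kb from MIR373, and 28% of all hairpins had a CTCF peak within 5 kb. Of the 11 let-7 hairpins, 4 had H3K27ac within 5 kb, the highest at MIRLET7I with a fold of 52.7. All 3 miR-9 hairpins had it, with a highest fold of 37.8 at MIR9-2. Hairpins of a cluster share the same surroundings, so these counts are not independent, and none was tested against the background.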
